A study of Mus musculus with 4 samples.

Results

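Fn1, Nid1 and Ltbp4 encode secreted glycoproteins of the extracellular matrix, and their ribosome footprints were compared in mouse embryonic fibroblasts with and without the PI3K inhibitor 17β-hydroxy wortmannin. The 3 transcripts were taken by their UCSC identifiers, uc007bjy.2 for Fn1, uc007pmg.2 for Nid1 and uc009fvt.2 for Ltbp4, out of 63759 transcripts tabulated. They had been chosen by their measured difference between wortmannin and control libraries, so their fold changes are given as descriptions, with no test. All 4 libraries came from wild-type C57BL/6 cells that were grown to confluence, synchronised with dexamethasone (a glucocorticoid that aligns the circadian phase of cultured cells) and moved 24 h later from 35 °C to 38.5 °C. The inhibitor was given at the time of the warm shift to the cells of the 2 wortmannin libraries and not to those of the 2 control libraries, so the warm shift and dexamethasone were common to both groups.

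Fibronectin, the product of Fn1, is a large dimeric glycoprotein that cells pull into fibrils through integrins, and it is among the main matrix products of cultured fibroblasts. Nidogen-1, the product of Nid1, links the laminin and collagen IV networks of basement membranes. LTBP4 belongs to the latent TGF-beta binding proteins, which hold latent TGF-beta in the matrix and sit on fibrillin microfibrils and elastic fibres. PI3K makes the lipid signal that activates AKT and, through it, mTORC1, a kinase that promotes translation.

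The libraries held 7485868 to 31110420 counts, and both wortmannin libraries were shallower than both control libraries. Log2 CPM (counts scaled to 1000000 per library) correlated at 0.993 between the control libraries and 0.969 between the wortmannin libraries, and chi-square per degree of freedom was 1.67 and 6.31 in these pairs, so both pairs differed by more than counting noise. The series text states 2 independent experiments, but nothing in the labels ties a library to its experiment or culture, so p-values measure the spread between these libraries, which may be technical. Of 10 fibroblast markers, the 3 that could be named (Col5a1, Fbn1 and Col6a3) had 328 to 1558 CPM, while the epithelial Dsp, the neural Reln and the muscle genes Ttn and Ryr1 had 0 to 11 counts in any library. The neural marker Nes was at 13.8 to 18.9 CPM, the epithelial Lama3 had 5 to 23 counts, and no endothelial or macrophage marker could be named. A transcript at the length of the muscle myosin Myh4 had 82.6 and 80.9 CPM in control replicates 1 and 2 and was lower with wortmannin, at 48.7 and 42.8 CPM. The name is uncertain, since several myosin heavy chains are of almost the same length. This transcript thus moved in the direction of Nid1 and Ltbp4, and its part in their values was not tested.

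The names rest on coding length. The deposited lengths are 9 codons below those of GENCODE M21 (GRCm38, the assembly of mm10), and on that scale 2262, 1236 and 1657 codons are each the length of 1 annotated gene alone, namely Fn1, Nid1 and Ltbp4. Most of the longer transcripts listed around each had lengths of genes at or near that locus (16 of 27, 13 of 19 and 22 of 28). These counts include the gene's own isoforms, of which Fn1 and Ltbp4 have several, so they are not all separate support. Length alone does not settle a name: other tabulated transcripts of 1236 codons had 0 of 23 and 0 of 26 such neighbours, and one of 1657 codons had 1 of 35. Fn1 lies on chromosome 1 (71585520 to 71653200, minus strand), Nid1 on chromosome 13 (13437551 to 13512269, plus strand) and Ltbp4 on chromosome 7 (27305136 to 27337692, minus strand). uc007bjy.2 has the length of the annotated isoform Fn1-217, of 44 coding exons and 2271 residues. Nid1-201 has 20 coding exons and 1245 residues, and Ltbp4-201 has 33 and 1666. Cysteine made up 2.82% of residues in the Fn1 product, 4.02% in that of Nid1 and 9.66% in that of Ltbp4. The coding sequence of Ltbp4 was also the richest of the 3 in G and C, at 62.4% against 54.4% in Fn1 and 55.6% in Nid1.

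The arginine-glycine-aspartate tripeptide is the integrin-binding signature of fibronectin, and nidogen-1 carries one too. It occurs 2 times in the Fn1 product, once in that of Nid1 and 0 times in that of Ltbp4. The coding sequence around it is shown for Fn1 (first occurrence, in chr1:71606716-71606784, minus strand, with the 9 bases at 71606746 to 71606754) and for Nid1 (the 9 bases at 13483769 to 13483777 of chromosome 13, plus strand), 5′ to 3′ from GENCODE M21 on GRCm38, with the 3 codons in capitals.
Fn1: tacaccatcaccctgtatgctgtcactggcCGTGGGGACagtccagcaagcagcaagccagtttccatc
Nid1: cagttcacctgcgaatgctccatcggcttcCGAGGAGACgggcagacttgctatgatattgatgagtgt

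Footprints on Fn1 were more abundant with wortmannin. Control replicates 1 and 2 had 249974 and 478641 counts on its transcript, and wortmannin replicates 1 and 2 had 161377 and 155333. Scaled to library size with TMM factors, these were 16048 and 15299 CPM without wortmannin and 21655 and 20665 CPM with it. Both wortmannin libraries lay above both control libraries. Group means were 15673 ± 530 CPM for control and 21160 ± 700 CPM for wortmannin (SD, n = 2). The fitted log2 fold change was 0.43 ± 0.12 (SE), or 1.35-fold. Only footprints were counted here, so a change in mRNA level and a change in ribosomes per mRNA cannot be told apart, nor can a change in the kinds of cells present and a change per cell.

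Nid1 went the other way. Control replicates 1 and 2 had 1818 and 3593 counts on it, against 566 and 548 in the wortmannin libraries in the same order. The scaled levels were 117 and 115 CPM without and 76.0 and 72.9 CPM with wortmannin. The groups did not overlap, and the 2 libraries within each group were close. Group means were 116 ± 1.32 CPM for control and 74.4 ± 2.16 CPM for wortmannin (SD, n = 2). The fitted log2 fold change was -0.64 ± 0.10 (SE), which is 0.643 of the control level.

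Ltbp4 was also lower with wortmannin, with more spread. Control replicates 1 and 2 had 4621 and 8829 counts on it, against 1764 and 1425 with wortmannin. The scaled levels were 297 and 282 CPM without and 237 and 190 CPM with wortmannin. Both wortmannin libraries lay below both control libraries, and replicate 2 was the lower of the wortmannin pair. Group means were 289 ± 10.2 CPM for control and 213 ± 33.3 CPM for wortmannin (SD, n = 2). The fitted log2 fold change was -0.44 ± 0.13 (SE), or 0.737 of the control level. The value depended on 1 library: it was -0.28 without wortmannin replicate 2 and -0.62 without wortmannin replicate 1.

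As background for these directions, wortmannin raised 15.8% and lowered 17.3% of the 26602 transcripts that passed the low-count filter, called by edgeR's quasi-likelihood test at a Benjamini-Hochberg adjusted p below 0.05. Both wortmannin libraries lay above both control libraries for 34.1% of tested transcripts and below both for 34.9%. The called numbers, 4215 higher and 4596 lower, depended on the control libraries and the tool: they were 1682 and 2201 without control replicate 1, 1269 and 1853 without control replicate 2, and 2302 and 2691 in DESeq2. Since the responses chose these genes, nothing is read from their number.

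**Figure D1:**
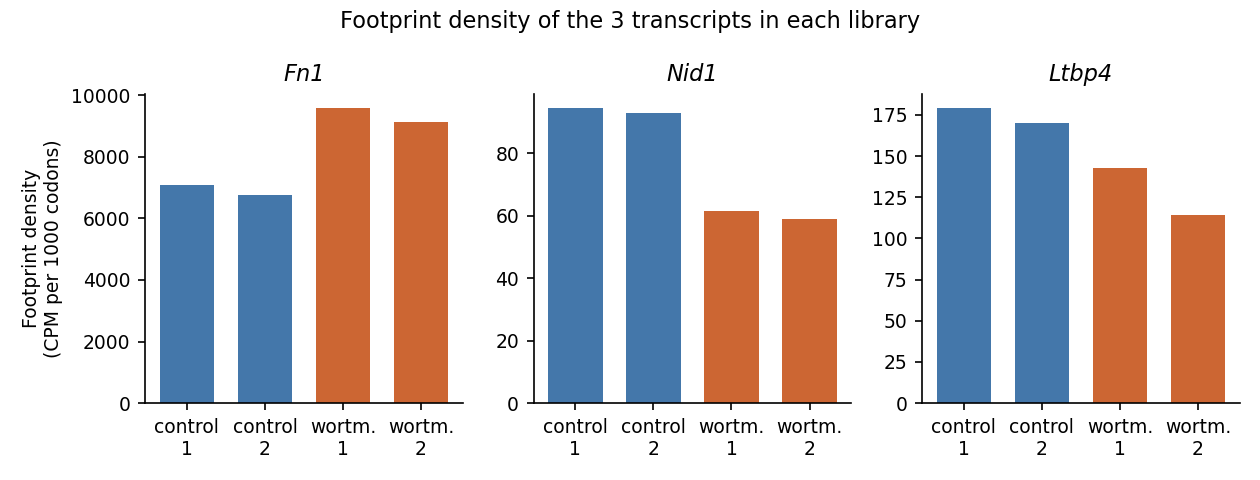
Footprint density, in CPM per 1000 codons, of the Fn1, Nid1 and Ltbp4 transcripts in each of the 4 libraries (1 bar a library, blue control, orange wortmannin), with a separate axis from 0 for each gene. The wortmannin bars are the taller ones for Fn1 (9136 and 9573 against 6763 and 7095) and the shorter ones for Nid1 and Ltbp4.

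Levels were set against each other per coding length, as CPM per 1000 codons. In the control libraries Fn1 had a density of 6929 ± 234, Ltbp4 of 175 ± 6.17 and Nid1 of 93.7 ± 1.07 (SD, n = 2). Fn1 held rank 26 of 26602 transcripts without wortmannin and rank 19 with it, isoforms counted singly. Ltbp4 stood above 92.8% of transcripts in the control group and 92.3% in the wortmannin group. Nid1 stood above 87.0% and 82.6%. The order Fn1, Ltbp4, Nid1 was the same in each of the 4 libraries, and the 3 densities differed by more than their spread.

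A ratio taken within a library needs no scaling between libraries. Counts per codon on Nid1 were 1.33% and 1.37% of those on Fn1 in control replicates 1 and 2, against 0.642% and 0.646% with wortmannin. The wortmannin pair thus agreed closely, and the ratio of the group means was 0.476. For Ltbp4 the shares of the Fn1 density were 2.52% in both control libraries, against 1.49% and 1.25% with wortmannin, a ratio of group means of 0.544. The density of Ltbp4 as a share of that of Nid1 was 190% and 183% without wortmannin and 233% and 194% with it. This last ratio differed less between groups (1.14) than the others, and wortmannin replicate 2 lay near the control values. All 3 ratios use the counts by which the genes were chosen, so they restate that choice and are no separate support.

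**Figure D2:**
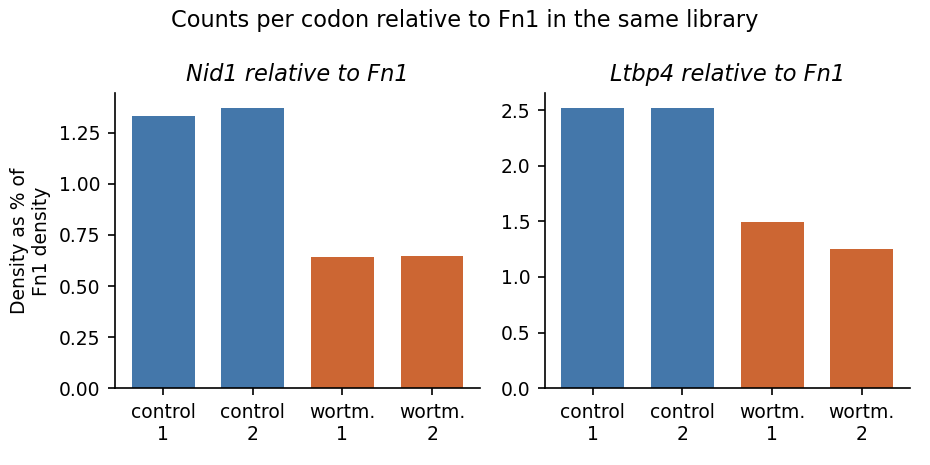
Counts per codon on Nid1 (left) and Ltbp4 (right) as a percent of counts per codon on Fn1 in the same library, 1 bar a library, both axes from 0. The bars for Nid1 stand at 1.33% and 1.37% without wortmannin and at 0.642% and 0.646% with it.

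Fold changes were higher on long transcripts in these data, so each gene was also placed among transcripts of 0.8 to 1.25 times its own coding length. Around Fn1 there were 514 such transcripts with a median log2 fold change of 0.21 (quartiles -0.08 and 0.53), and 68.3% of them were below Fn1. Its value was thus inside the middle range of its length class. Around Nid1 the median of 2173 transcripts was 0.17, and only 4.92% were below Nid1. Around Ltbp4 the median of 1052 transcripts was 0.17, and 7.79% were below Ltbp4. Nid1 and Ltbp4 were low for their length, while over all transcripts 14.2% and 22.1% lay below them and 77.4% lay below Fn1. The transcripts compared include isoforms that share counts. Fn1, Nid1 and Ltbp4 had been chosen by these same fold changes, so their places restate that choice and are no separate support.

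**Figure D3:**
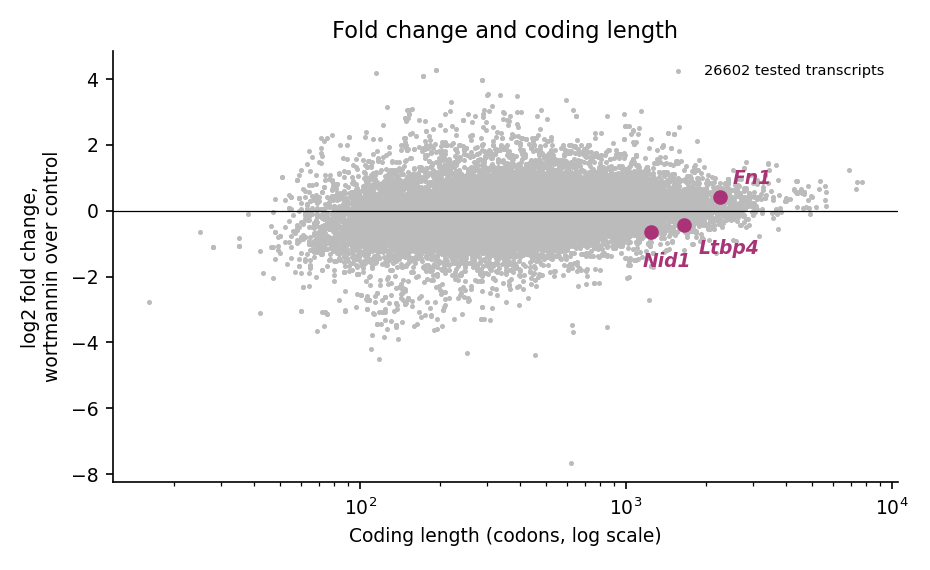
Log2 fold change of wortmannin over control (vertical axis) against coding length in codons on a log axis, for 26602 tested transcripts (grey points). The named purple points are Fn1, Nid1 and Ltbp4. Fn1 lies inside the cloud of its length at 0.43, and Nid1 and Ltbp4 lie in the lower part of theirs at -0.64 and -0.44, with other transcripts below them. All were chosen by this fold change, so their places restate that choice.

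Fibronectin mRNA is spliced in different ways at 3 places, the EIIIB exon, the EIIIA exon and the variable region (also called V or IIICS). EIIIB and EIIIA each code for a whole type III repeat and are known from embryonic, wounded and cultured tissue, while plasma fibronectin lacks both. The beginning of the variable region carries a leucine-aspartate-valine site that binds other integrins than the tripeptide does. The deposited table holds 7 long Fn1 transcripts whose lengths equal those of 7 annotated isoforms, and they differ by exactly these pieces, of 91 codons (EIIIB), 90 codons (EIIIA), and 25 and 95 codons (variable region). Their sequences show which footprints were separated; the capitals mark the leucine-aspartate-valine codons. The EIIIB exon is at chr1:71613763-71614035, the EIIIA exon at chr1:71603660-71603929 and the first 25 codons of the variable region at chr1:71597673-71597747 (GRCm38, minus strand, from GENCODE M21).
EIIIB exon: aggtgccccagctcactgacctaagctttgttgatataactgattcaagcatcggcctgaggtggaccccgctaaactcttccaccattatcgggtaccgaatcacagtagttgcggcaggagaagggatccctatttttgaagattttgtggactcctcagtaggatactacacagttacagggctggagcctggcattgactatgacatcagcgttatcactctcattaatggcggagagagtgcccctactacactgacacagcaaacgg
EIIIA exon: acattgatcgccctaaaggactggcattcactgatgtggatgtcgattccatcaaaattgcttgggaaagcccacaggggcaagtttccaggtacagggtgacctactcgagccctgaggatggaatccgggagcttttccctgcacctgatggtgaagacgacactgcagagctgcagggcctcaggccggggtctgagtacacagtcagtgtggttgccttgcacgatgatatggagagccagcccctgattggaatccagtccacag
Variable region, first 25 codons: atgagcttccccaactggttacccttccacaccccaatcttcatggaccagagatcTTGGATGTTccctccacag

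uc007bjy.2 itself lacks EIIIB, EIIIA and those 25 codons. A footprint that lies in several isoforms was counted for all of them, so the 7 transcripts had nearly the same log2 fold change, 0.43 to 0.44, and are not separate evidence. Subtracting a transcript from one that differs by a single piece leaves the net footprints of that piece. The difference for EIIIA was the same in 3 pairs of transcripts, 2617 and 5153 counts without and 1688 and 2384 counts with wortmannin. The 25-codon and 95-codon differences were likewise equal in 2 pairs each. How footprints across a skipping junction were counted is not stated in the labels; any that were kept lower each net value.

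Piece densities are given as a percent of the density over uc007bka.2, the 2167 codons that all 7 long isoforms share, with exact Clopper-Pearson 95% intervals that cover counting error only. EIIIB stood at 24.5% (23.5 to 25.5) and 24.1% (23.4 to 24.8) in control replicates 1 and 2, whereas it stood at 20.5% (19.4 to 21.7) and 35.4% (34.0 to 37.0) in wortmannin replicates 1 and 2. EIIIA stood at 26.4% (25.4 to 27.5) and 27.2% (26.4 to 27.9) without wortmannin, and at 26.4% (25.2 to 27.7) and 38.7% (37.2 to 40.3) with it. Both exons were thus higher in wortmannin replicate 2 than in any other library. For EIIIB the wortmannin libraries lay on both sides of the control values, with replicate 1 at 20.5%, below both. Group means were 24.3% ± 0.302 and 28.0% ± 10.6 for EIIIB, and 26.8% ± 0.526 and 32.6% ± 8.73 for EIIIA (SD, n = 2). For both exons the difference between group means was smaller than the SD of the wortmannin libraries. The two-sided exact permutation test gave p = 1 for each, but 2 against 2 libraries cannot go below 0.333, so it shows neither a difference nor its absence. Without wortmannin replicate 2, the 20.5% of EIIIB is below both control values and the 26.4% of EIIIA is level with them.

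The variable region was near the density of the common codons in every library. Its first 25 codons stood at 86.1% and 85.7% without wortmannin and at 84.5% and 98.8% with it. Here too wortmannin replicate 2 was the high one (two-sided exact permutation p = 1). The other 95 codons, which uc007bjy.2 contains, stood at 109.5% and 109.0% without wortmannin and at 110.3% and 110.5% with it. The 95% counting intervals of all 4 libraries overlapped. They were 107.5 to 111.6 and 107.6 to 110.5 without wortmannin, and 107.7 to 112.9 and 107.9 to 113.2 with it. This piece had both wortmannin libraries above both control libraries by about 1 percentage point, with means of 109.3% ± 0.347 and 110.4% ± 0.179 (SD, n = 2). That was the only one of the 4 pieces to do so, at the smallest p the design allows (exact permutation p = 0.333; 1 after Benjamini-Hochberg adjustment over the 4).

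**Figure D4:**
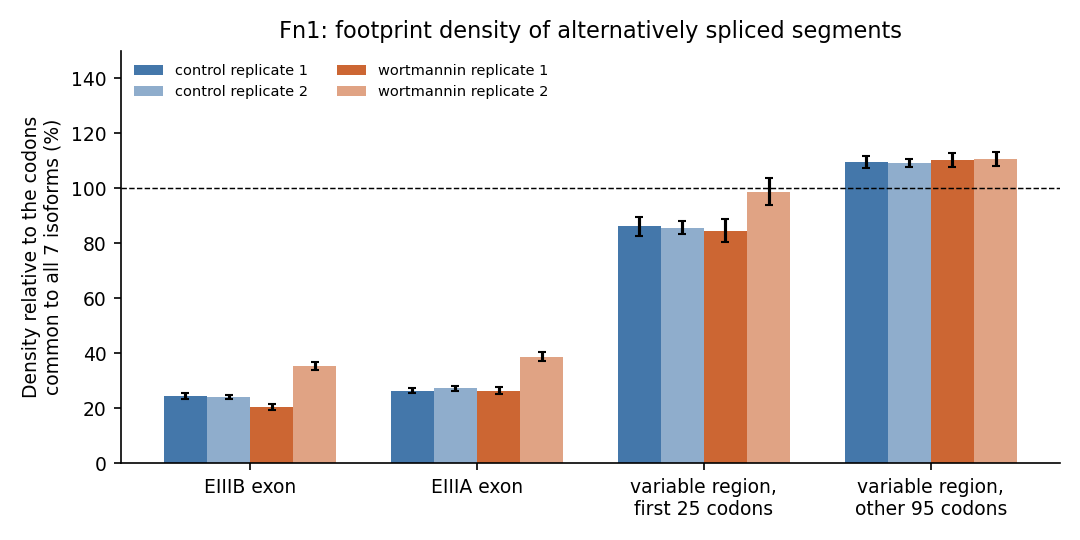
Footprint density of 4 alternatively spliced Fn1 pieces as a percent of the density over the 2167 common codons (dashed line at 100), with 1 bar a library (blue control, orange wortmannin) and exact 95% counting intervals. EIIIB and EIIIA sit between 20.5% and 27.2% except in wortmannin replicate 2, where they reach 35.4% and 38.7%, and the pieces of the variable region sit near the line.

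A short Fn1 transcript was tabulated as well. uc007bkc.2, of 374 codons, has the length of Fn1-208, which holds the beginning of the protein and stops early; 34 genes in all have an isoform of that length. Its density was 91.0% and 92.7% of the common density without wortmannin and 90.3% and 85.6% with it. The density of this transcript was thus slightly below the common density in all 4 libraries, and lowest in wortmannin replicate 2. Whether it has codons that the long isoforms lack was not determined. Its log2 fold change was 0.37 ± 0.11 (SE).

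Ltbp4 has a long and a short form that start at different promoters and so begin with different signal sequences. uc009fvt.2 has the length of the long form Ltbp4-201, which begins with 4 exons of its own, 448 coding bases between 27334837 and 27337567 of chromosome 7. uc009fvs.3, of 1591 codons, has the length of the short form Ltbp4-205 (4 genes share that length), which begins with 1 exon of its own, 250 coding bases at 27333355 to 27333604. The first 60 coding bases of each are shown because the 2 starts share no exon; the start codon is in capitals (chr7:27337508-27337567 and chr7:27333545-27333604, GRCm38, minus strand, from GENCODE M21).
Ltbp4 long form: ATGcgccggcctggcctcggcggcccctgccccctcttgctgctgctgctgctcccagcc
Ltbp4 short form: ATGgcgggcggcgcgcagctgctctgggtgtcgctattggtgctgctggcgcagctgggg

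The short form had more counts than the long form, although it has fewer codons. The excess was 155 and 301 counts without wortmannin and 74 and 66 counts with it. As these forms differ only at the start, the exon of the short form carried at least these counts, whatever the 4 exons of the long form carried. That is at least 1.86 and 3.61 counts per codon in the control libraries, against 3.002 and 5.739 over the whole short form. In the wortmannin libraries it is at least 0.888 and 0.792, against 1.16 and 0.937. Relative to the long form, the excess was 3.35% and 3.41% without and 4.20% and 4.63% with wortmannin, values that rest on few counts. Over the 4 transcripts with an annotated Ltbp4 length, log2 fold changes were -0.44 to -0.38, with most counts shared.

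Other matrix genes were read from 8 lists of 150 genes, of which 15 genes beside Fn1, Nid1 and Ltbp4 could be named by coding length and were tested. Of these, 6 were higher with wortmannin, 0 were lower and 9 did not pass, by edgeR with Benjamini-Hochberg adjustment over all transcripts. At an unadjusted p under 0.05 edgeR had 8 of the 15 higher and 0 lower, against 37.2% and 10.9% of all tested transcripts of at least 1111 codons. DESeq2 also had 8 higher and 0 lower, against 27.3% and 6.26% of those long transcripts. At the adjusted threshold DESeq2 had 4 of the 15 higher and 0 lower, against 2302 and 2691 of all 26602 tested transcripts. That last comparison is not matched for length, since the DESeq2 share among long transcripts was not determined at this threshold. The genes that could be named are long, and among the 2380 long transcripts 28% were higher and 7.61% lower at the adjusted threshold of edgeR. The median log2 fold change was 0.33 for the 15 genes and 0.21 for those 2380 transcripts. Both wortmannin libraries were above both control libraries for 10 of the 15 and below for 0, against 51.6% and 20.7% of long transcripts. Most or all of the calls of higher genes were lost with either control library left out, where the fit takes its spread from the wortmannin pair alone. The log2 fold changes without control replicate 1 and without control replicate 2 were 0.33 and 0.33 for Fbn1 and 0.37 and 0.32 for Adamtsl3. In the same order they were 0.59 and 0.56 for Hmcn1 and 0.68 and 0.63 for Lrp1. For Col6a3 they were 0.77 and 0.69, and for Tnxb 1.03 and 0.72.

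Of 3 genes on the list of matrix glycoproteins, to which Fn1 and Nid1 belong, 1 rose. Tnxb, tenascin-X, was higher by 0.91 ± 0.20 on the log2 scale at a low level (4.24 and 3.42 CPM without, 6.58 and 7.45 with wortmannin; edgeR, Benjamini-Hochberg adjusted p = 0.00919). Svep1 (0.33 ± 0.13) and Fras1 (0.38 ± 0.15) did not pass. Both genes named on the list of microfibrils and latent TGF-beta binding, to which Ltbp4 belongs, were higher. Fbn1, the main protein of microfibrils, was at 328 ± 1.08 CPM without and 414 ± 23.8 CPM with wortmannin (SD, n = 2), a difference of 0.33 ± 0.10 on the log2 scale (edgeR, adjusted p = 0.0351), and its adjusted p was 0.0858 with a replicate block and 0.0918 in DESeq2. Hmcn1, hemicentin-1, was at 104 ± 1.49 CPM without and 156 ± 2.37 CPM with it, higher by 0.58 ± 0.10 on the log2 scale (edgeR, adjusted p = 0.00277).

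Nidogen-1 works in the basement membrane, and of 2 genes named on the list of other basement membrane genes neither passed in edgeR. Hspg2, the proteoglycan perlecan, was at 1179 and 1191 CPM in control replicates 1 and 2 and at 1436 and 1140 CPM in wortmannin replicates 1 and 2. Lama5, a laminin chain, was at 82.3 and 71.2 CPM without and 68.8 and 73.7 CPM with wortmannin. For both genes the libraries of the 2 groups overlapped, and the log2 fold changes were 0.12 ± 0.13 and -0.10 ± 0.12 (edgeR, adjusted p = 0.505 and 0.518). Nid1, at -0.64, was below both, a difference between genes that was not tested, and Nid1 had been chosen by this value.

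Of 4 collagens, Col6a3 rose (log2 fold change 0.73 ± 0.17; edgeR, adjusted p = 0.0118), and its wortmannin libraries were far apart, at 904 and 1346 CPM in replicates 1 and 2. The other collagens did not pass: Col5a1 was at -0.08 ± 0.14 on the log2 scale, and Col14a1 (0.38 ± 0.42) and Col7a1 (0.27 ± 0.46) had 5 to 54 counts in any library. Wortmannin replicate 2, the higher one here, is also the library in which the EIIIB and EIIIA exons of Fn1 were high. Lrp1, an endocytic receptor that takes up matrix proteins and proteases, was at 1548 ± 42.4 CPM without and rose to 2445 ± 54.2 CPM with wortmannin (SD, n = 2), by 0.66 ± 0.10 on the log2 scale (edgeR, adjusted p = 0.00199). The cytoskeletal linkers Tln1 and Flnc, at 0.03 ± 0.10 and -0.07 ± 0.12, did not pass. Adamtsl3, a secreted ADAMTS-like protein, rose by 0.35 ± 0.10 (edgeR, adjusted p = 0.028; 0.122 in DESeq2 and 0.0695 with a replicate block). No proteoglycan or TGF-beta signalling gene of the remaining lists could be named.

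By density in the control libraries, Fn1 came first of these 18 genes, at 6929 CPM per 1000 codons, ahead of Col5a1 at 793 ± 15.5. Ltbp4 came seventh, at 175 ± 6.17, next to Svep1 at 185 ± 1.60 and above Tln1 at 118 ± 0.547. Ltbp4 and Svep1 differed by little more than their spread, whereas Tln1 lay clear of Ltbp4. Nid1 came eleventh, at 93.7 ± 1.07, between Flnc at 108 ± 1.49 and Adamtsl3 at 31.9 ± 0.737. In the wortmannin libraries Nid1 was at 60.2 ± 1.74 and Ltbp4 at 129 ± 20.1 (SD, n = 2).

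**Figure D5:**
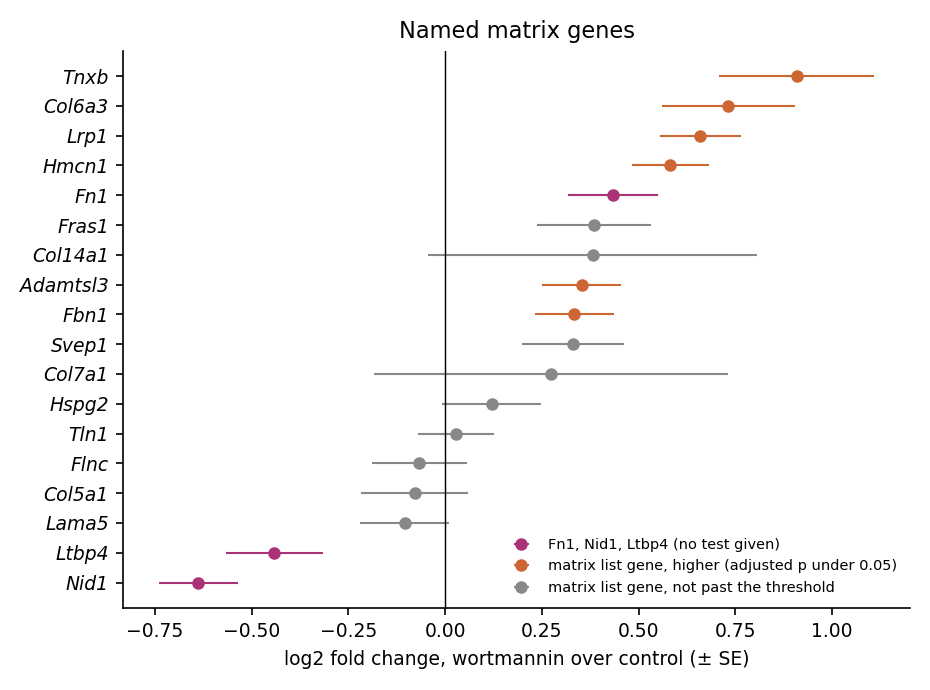
Log2 fold change of wortmannin over control with its SE for Fn1, Nid1 and Ltbp4 (purple, no test given) and 15 other named matrix genes (orange, higher at an adjusted p under 0.05; grey, not past it). Fn1, at 0.43, lies among the other genes, and Nid1 and Ltbp4, at -0.64 and -0.44, are the lowest of the 18. The purple genes were chosen by this fold change, so their places restate that choice.

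The genes with the most similar pattern were sought among 175 other named genes of at least 10 CPM, by the Euclidean distance between log2 CPM values over the 4 libraries, each gene centred on its mean. Nearest to Fn1 were C2cd3, a centriole protein (distance 0.066), the histone acetyltransferase Kat6a (0.090) and 2610507B11Rik (0.094). Among the nearest to Nid1 were Tsc2, which encodes tuberin, a brake on mTORC1 (0.062), and the lipid transfer protein Vps13a (0.152). Nearest to Ltbp4 were the lipid kinase Pi4ka (0.094), the nuclear pore protein Nup214 (0.134) and the Mediator subunit Med12 (0.167). No other gene of the matrix lists was among these. Over 4 libraries the distance mostly restates the difference between groups, and it is given as a description.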

How the data were processed

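Ribosome-protected footprints were sequenced in 2 control and 2 wortmannin libraries, grouped by their titles. The deposited files give whole-number counts per UCSC transcript and its coding length in codons; the authors did not normalise them, judging by the values. Per the submitters' processing notes the tools were CASAVA 1.8 and STAR 2.7.0 and the build was mm10; the counting tool is not given in these sources. A footprint inside several isoforms was counted for all of them, so totals exceed the number of footprints.

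All transcripts were fitted together with edgeR 4.0.16 in R 4.3.3 (TMM, default filter with a minimum count of 10, quasi-likelihood F test, Benjamini-Hochberg at 0.05). SEs are the absolute log2 fold change over the root of the F statistic. DESeq2 1.42.0, other scalings and filters, a replicate block and fits without each library were alternatives. Segment counts and exact tests used Python 3.11.15 with scipy 1.17.1.

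A transcript took a gene's name where its length, with 9 codons added, belonged to 1 gene alone. Among neighbours of 300 codons or more, up to 25 lines away, a share of at least 0.5 also had to have lengths of genes within 1000000 bp, the gene's own isoforms included. This kept 409 transcripts of 334 genes. With 9 codons, 94.5% of 1466 transcripts over 1500 codons matched some annotated length; other shifts up to 20 codons matched 59.1% to 64.1%. Named in the text are the 3 genes, other transcripts within 25 lines at an annotated length of the same gene, each tested gene of the 8 lists, and the 3 genes most like each, of which 1 is not reported here. The genes and lists were chosen with earlier results of these data known.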

Additional observations from a re-analysis of the deposited data

How the results depend on the processing

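Fn1 stayed above 0, and Nid1 and Ltbp4 below 0, on the log2 fold change scale in all 11 alternatives run for each. With other scalings and filters, shifts beyond the spread between libraries were small for Fn1 (0.50 with upper quartile factors) and for Nid1 (-0.67 with library totals only, -0.57 with upper quartile factors, -0.67 with no low-count filter and -0.60 with a minimum count of 50). Leaving out 1 library gave 0.39 to 0.47 for Fn1, -0.68 to -0.60 for Nid1 and -0.62 to -0.28 for Ltbp4. Also beyond that spread were Nid1 without wortmannin replicate 1 (-0.68) or 2 (-0.60) and Ltbp4 without wortmannin replicate 1 (-0.62). DESeq2 called 2302 transcripts higher and 2691 lower, against 4215 and 4596. With 1 library left out, 1269 to 5724 transcripts were higher and 1853 to 6283 lower, the fit then taking the spread of the single library from the other group. In these same fits 0 to 8 matrix genes were higher and 0 to 1 lower, the 1 being Col5a1 without wortmannin replicate 1 and Flnc without wortmannin replicate 2. Deviations of same-numbered libraries correlated at -0.059, so the numbers were not taken as pairs; with a replicate block 3729 transcripts were higher and 4134 lower, 4 matrix genes were higher, and Fn1, Nid1 and Ltbp4 were at 0.43, -0.64 and -0.45. The densities of EIIIB and EIIIA, with the 95-codon piece as denominator, differed by 3.13 and 4.99 percentage points between group means (wortmannin minus control), against 3.71 and 5.78; this and the fit on transcripts with distinct counts were chosen after seeing the data. With 548 to 3593 counts on Nid1, counting error is relatively larger for it than for Fn1. The SE of its log2 fold change was not larger, at 0.10 against 0.12.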

Other observations

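Transcripts listed beside Fn1 and Nid1 have no length of a complete annotated isoform of those genes, and are given only as values. uc007bkb.2, of 341 codons, had 2605 and 2468 CPM in control replicates 1 and 2 and 3505 and 3339 CPM in wortmannin replicates 1 and 2 (log2 fold change 0.43 ± 0.11, SE). uc007bkd.2, of 287 codons, had 1976 and 1942 CPM without and 2710 and 2412 CPM with wortmannin (0.39 ± 0.11). uc007pmf.2, of 969 codons, had 87.2 and 86.7 CPM without and 58.4 and 52.8 CPM with wortmannin (-0.65 ± 0.11). Each was on the same side of its control libraries as the Fn1 or Nid1 transcript beside it; whether they share its footprints was not determined.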
